A study of Mus musculus with 2 samples.

Results

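Malat1 is a long noncoding RNA of the nucleus, and it is described here by the read clusters that an experiment on the RNA-binding protein FAM120A placed on it. Its clusters were chosen by position: they are all listed clusters on the minus strand of chromosome 19 that lie within positions 5795500 to 5802800 of the mouse build mm9, a window of 7301 nt. This gave 49 clusters, all from the list of the tagged library, out of 11670 in that list. Of the 1134 clusters in the list of the untagged library, 0 lay in the window. The name Malat1 for this window comes with the rule, since no annotation of mm9 was used here. RefSeq lists Malat1 as an lncRNA.

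The measurements are from iCLIP, in which ultraviolet light links a protein to the RNA it touches and the copied RNA fragments are sequenced. Both mouse embryonic stem cell lines carried Fam120a from the pSLIK lentiviral system and received doxycycline at 2.5 µg/mL. The protein bore FLAG and HA tags in TT-FHFam120a cells, the tagged library, and no tag in TT-Fam120a cells, the untagged library, which shows what both immunoprecipitations recover without a tag. There were 2 libraries, 1 per group, so no difference below could be checked in replicates, and the groups were not tested against each other. Whether each line was a single clone, and how the induced protein compared with the cells' own FAM120A, is not given in the sources used here. The lists hold bound RNA and no expression levels, so the labelled cell type was not checked against markers. For the same reason, more Malat1 RNA and more binding per RNA molecule cannot be told apart.

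Malat1 is among the abundant long noncoding RNAs of mammalian cells and gathers at nuclear speckles, bodies rich in splicing factors. It is made by RNA polymerase II, and its 3′ end is formed by RNase P, which cuts off a small tRNA-like RNA and leaves a triple helix in place of a poly(A) tail. FAM120A associates with Argonaute 2, the protein that microRNAs guide to their targets. Malat1 lies on the minus strand, so its 5′ end has the high coordinate, and distances below are counted in the direction of transcription from 1 at position 5802800.

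Clusters ran from nt 408 to nt 6751 of the window and together covered 2297 nt, or 31.5% of it. They were uneven along the RNA. In the first 2000 nt lay 8 clusters of 5 to 15 tagged reads (median 6), and 0 of them reached 20 reads. From nt 2001 to 3500 there were 17 clusters, with a median of 26 reads and a maximum of 75. From nt 4001 to 5500 there were 14, with a median of 29 reads and a maximum of 82. These 2 parts of 1500 nt each held 11 and 8 of the 22 Malat1 clusters of at least 20 reads, and the remaining 3 lay between nt 6501 and 7000. Each cluster was placed by its midpoint, and the limits of these parts were set on bins of 500 nt after their values were seen.

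**Figure D1:**
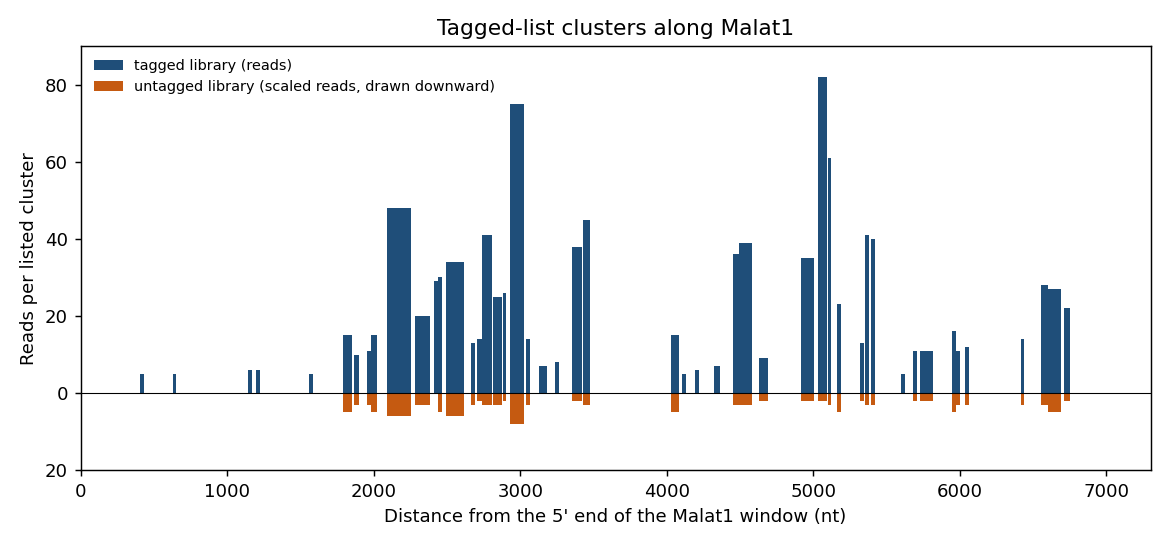
Reads of each of the 49 Malat1 clusters (vertical axis, reads) against distance from the 5′ end of the window (nt), with the tagged library drawn upward and the scaled untagged library downward; bar width is cluster width. Tagged reads stay at or below 15 in the first 2000 nt and reach 75 and 82 in the 2 parts after it, while scaled untagged reads do not pass 8.

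Beside each tagged count stands a count from the untagged library, recovered from the ratio and p that the authors listed for the cluster. Those listed values use untagged reads multiplied by a factor of 1.501, read here as a correction for depth. Counts of the untagged library are unscaled below unless called scaled. A depth-adjusted ratio is tagged reads over untagged reads times this factor, and its exact 95% binomial interval covers counting error only. Reads are not known to be separate RNA molecules, and neither library's total depth is known.

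The untagged library held reads at 37 of the 49 clusters, between 1 and 5 at each, and 0 reads at the other 12. At 12 of 49 the share with 0 untagged reads was 24.5% (Wilson 95% interval 14.6 to 38.1), while over the whole tagged list it was 69.9%. This share depends on cluster size, because the lowest tagged count that the listing allows against any untagged read is 9. The 11 Malat1 clusters of at most 8 tagged reads thus had 0 untagged reads by the listing itself. Among those of at least 20 reads, 1 of 22 had 0, or 4.55% (0.807 to 21.8), against 16.1% of the tagged-list clusters of that size.

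The authors' log2 ratio, which adds 1 to both counts, had a median of 2.58 over the 49 clusters (95% interval 2.32 to 2.86) and ran from 1.42 to 4.91. The median over the whole tagged list was 2.81. A ratio of at least 3 was listed for 16 of 49 Malat1 clusters, or 32.7% (21.2 to 46.6), beside 38.7% of all tagged-list clusters. The value 2.58 is also what 5 reads against 0 give, so these medians mix measured ratios with values set by the added 1. At 20 or more reads the Malat1 median was 3.19 (2.70 to 3.52) and the list median 2.87, with 13 of 22 and 46.3% at a ratio of at least 3. The list was selected on this ratio, and these values are therefore a description.

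The interval of the depth-adjusted ratio lay above 1 for 30 of the 49 clusters. Over all tagged-list clusters this held for 46.2%. For the other 19 Malat1 clusters the interval included 1, so counting error alone leaves their enrichment unsettled. All 22 clusters of at least 20 reads were among the 30, where the share over tagged-list clusters of that size was 89.1%. The interval lay above 4 for 5 of the 49 clusters, and for 4.22% of all tagged-list clusters. The authors' p was at most 0.01 for 29 of the 49 clusters, beside 52.8% of all tagged-list clusters.

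**Figure D2:**
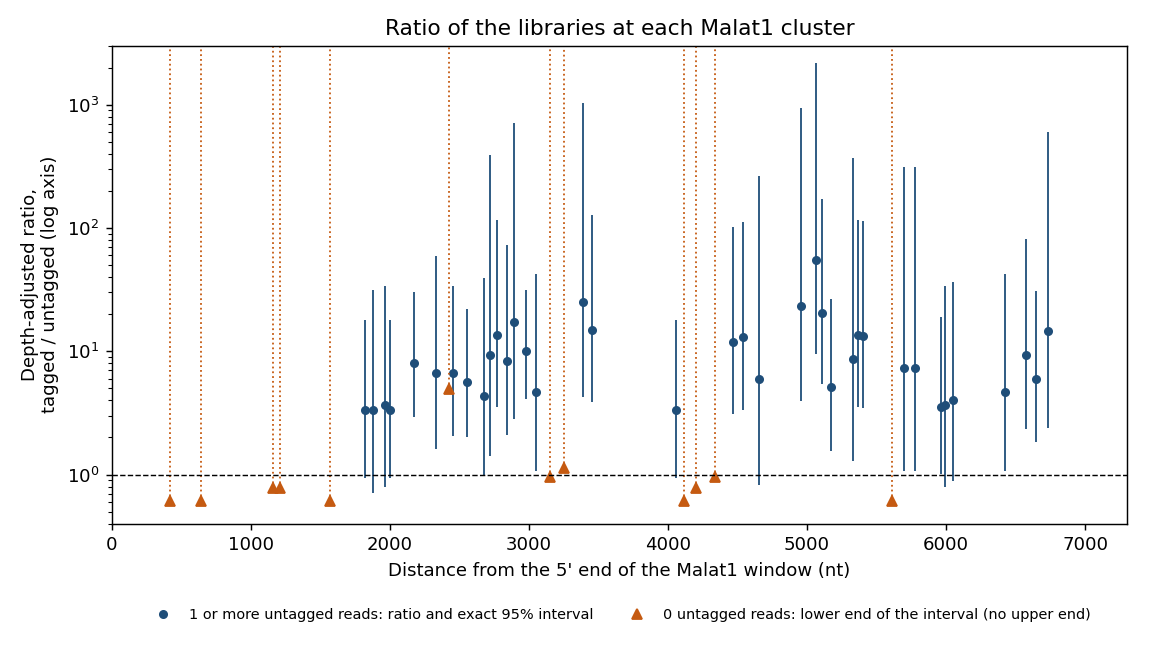
Depth-adjusted ratio of tagged to untagged reads (log axis) at each Malat1 cluster against distance from the 5′ end of the window (nt); points with lines are ratios with exact 95% intervals, triangles the lower ends for the 12 clusters with 0 untagged reads, and the dashed line marks a ratio of 1. The interval lies above 1 at 30 clusters, beside 46.2% of all tagged-list clusters, and at 0 of the 8 clusters of the first 2000 nt. Of these 8, 5 have 5 or 6 reads against 0. At such counts the interval always begins below 1, at 0.611 or 0.785.

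At the 5′ end the data were thin. No cluster was listed in the first 407 nt. The cluster nearest the 5′ end, nt 408 to 433 (positions 5802368 to 5802393), had 5 tagged reads against 0, with 1 read at its highest position. That is at least 1.11-fold over the untagged library when the latter is set at a floor of 3 reads for the cluster, and the exact interval began at 0.611. The cluster at nt 628 to 653 also had 5 reads against 0. It was followed by 491 nt without a cluster, up to a cluster of 6 reads against 0 at nt 1145 to 1170. Of the 8 clusters in the first 2000 nt, 5 had 5 or 6 reads against 0, which is at or next to the lowest count listed.

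The first listed cluster with untagged reads began at nt 1788. All clusters before it had 5 or 6 tagged reads, and the listing allows such clusters only against 0. Where untagged reads begin along the RNA is therefore not known. The first 4 clusters with untagged reads, nt 1788 to 2023, had 10 to 15 tagged reads, and their log2 ratios lay between 1.42 and 1.58, at the low end for Malat1. Here both libraries held reads, and the interval of the ratio included 1 at each of these clusters.

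Reads then rose over a dense part. Clusters at most 50 nt apart were joined into stretches, which left 21 stretches for the 49 clusters. The longest ran over 978 nt, from nt 2090 to 3067 (positions 5799734 to 5800711), and joined 12 clusters with log2 ratios of 1.81 to 4.91. Its cluster with the most reads lay at nt 2933 to 3025 (positions 5799776 to 5799868), with 75 tagged and 5 untagged reads, the highest untagged count on Malat1. The depth-adjusted ratio there was 9.99 (4.10 to 31.7). At the 5′ edge of the stretch, nt 2090 to 2252 (positions 5800549 to 5800711), a cluster of 163 nt had 48 tagged and 4 untagged reads, a ratio of 8.0 (2.93 to 30.5). It was the widest Malat1 cluster and was named by the authors from 9 regions.

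Within the same stretch lay the Malat1 cluster with the highest listed log2 ratio. Nt 2411 to 2436 (positions 5800365 to 5800390) held 29 tagged reads against 0, a log2 ratio of 4.91 and at least 6.44-fold over the floor of 3 untagged reads, with an interval beginning at 4.91. Its 3′ neighbour, which starts after a gap of 2 nt and was picked out after its values were seen, had 30 tagged and 3 untagged reads, a ratio of 6.66 (2.07 to 34.1). The tagged counts of the pair were thus nearly equal, and the listed log2 ratios of 4.91 and 2.37 differed through 3 untagged reads. The next cluster, nt 2492 to 2618 (positions 5800183 to 5800309), had 34 tagged and 4 untagged reads and a log2 ratio of 2.32, which is among the 3 lowest on Malat1 at 20 or more reads. Also in this stretch, a cluster at nt 2811 to 2875 had 25 tagged reads, of which 52.0% lay at its highest position.

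The dense part ended with a pair of clusters at nt 3356 to 3474. The first, nt 3356 to 3420 (positions 5799381 to 5799445), had 38 tagged reads and 1 untagged read, a ratio of 25.3 (4.28 to 1026). The second, nt 3431 to 3474 (positions 5799327 to 5799370), had 45 and 2, a ratio of 15.0 (3.92 to 127.6). Both intervals are wide because so few untagged reads stand below the ratio, and they overlap from 4.28 to 127.6.

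After this pair came the longest gap between clusters on Malat1, 555 nt from nt 3475 to 4029. The bin from nt 3501 to 4000 held no cluster, unlike every other bin between the outermost clusters. The cluster on its 3′ side, nt 4030 to 4080 (positions 5798721 to 5798771), had 15 tagged and 3 untagged reads and a log2 ratio of 1.42, the lowest on Malat1 and shared with 2 clusters before nt 2024, with an interval of 0.942 to 18.0 on the depth-adjusted ratio. A gap says that no cluster passed the authors' listing there, not that the RNA had no reads.

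The cluster with the most tagged reads and the lowest listed p on Malat1 lay in the part after the gap. Nt 5034 to 5089 (positions 5797712 to 5797767) held 82 tagged reads and 1 untagged read, a log2 ratio of 4.79 and a depth-adjusted ratio of 54.6 (9.54 to 2184). The authors listed for it a p of 1.85e-22, from an exact one-sided binomial comparison of these 2 libraries, not of the conditions. At its highest position lay 32 of the 82 reads.

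Its 3′ neighbour, nt 5097 to 5122 (positions 5797679 to 5797704), had 61 tagged and 2 untagged reads, a ratio of 20.3 (5.39 to 171.6), with 5 reads at the highest position. The next cluster of the same stretch, nt 5163 to 5188 (positions 5797613 to 5797638), had 23 and 3, a log2 ratio of 2 and a ratio of 5.11 (1.54 to 26.6). Over this stretch of 275 nt listed log2 ratios thus lay between 2 and 4.79, with 23 to 82 tagged and 1 to 3 untagged reads. The intervals of the clusters of 82 and 23 tagged reads overlap, from 9.54 to 26.6.

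Further 3′, from nt 5501 to 6500, lay 7 clusters of 5 to 16 tagged reads, with a median log2 ratio of 1.91 and 0 clusters at a ratio of at least 3. At 6 of the 7 the untagged library had 1 to 3 reads, and against any untagged read such tagged counts cannot reach a ratio of 3. The interval of the depth-adjusted ratio lay above 1 for 4 of the 7, beside 46.2% of all tagged-list clusters. At these 4 it began only just above 1, at 1.02 to 1.07. A gap of 350 nt, from nt 6064 to 6413, fell in this part.

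The last stretch, nt 6552 to 6751, held 3 clusters of 22 to 28 reads. The first of them, nt 6552 to 6598 (positions 5796203 to 5796249), was the Malat1 cluster of at least 20 reads with the most concentrated reads: 20 of its 28 lay at 1 position, or 71.4%. Its ratio was 9.33 (2.35 to 80.8). The next, nt 6602 to 6686, had 27 tagged and 3 untagged reads and a log2 ratio of 2.22. The cluster nearest the 3′ end, nt 6708 to 6751 (positions 5796050 to 5796093), had 22 tagged reads and 1 untagged read, a ratio of 14.7 (2.37 to 604.9). Beyond it 550 nt of the window held no cluster. This is the end toward which the triple helix of Malat1 lies, but the end of the transcript in mm9 was not placed here.

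Reads of Malat1 clusters were spread over positions. The highest position of a cluster held a median of 30.0% of its reads (26.8 to 38.2) over the 49 clusters, and 40% over the whole tagged list. At 20 or more reads the shares were 27.0% (23.1 to 38.2) and 45.3%. Of the 49 clusters 42 (85.7%) had at most 50% of their reads at 1 position, beside 66.8% of all tagged-list clusters. On the 3 loci most like Malat1, chosen in part by this measure and described further on, that share was 82.1%, 81.8% and 85.7%. On Malat1 0 clusters had over 75% at 1 position, beside 16.7% of the tagged list. On the same 3 loci, in the same order, 5.36%, 9.09% and 7.14% of clusters did. In a cluster picked out after its values were seen, nt 5392 to 5417, the highest position held 3 of 40 reads, the lowest share on Malat1 at 7.50%. For 7 clusters the authors listed several positions of equal height.

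**Figure D3:**
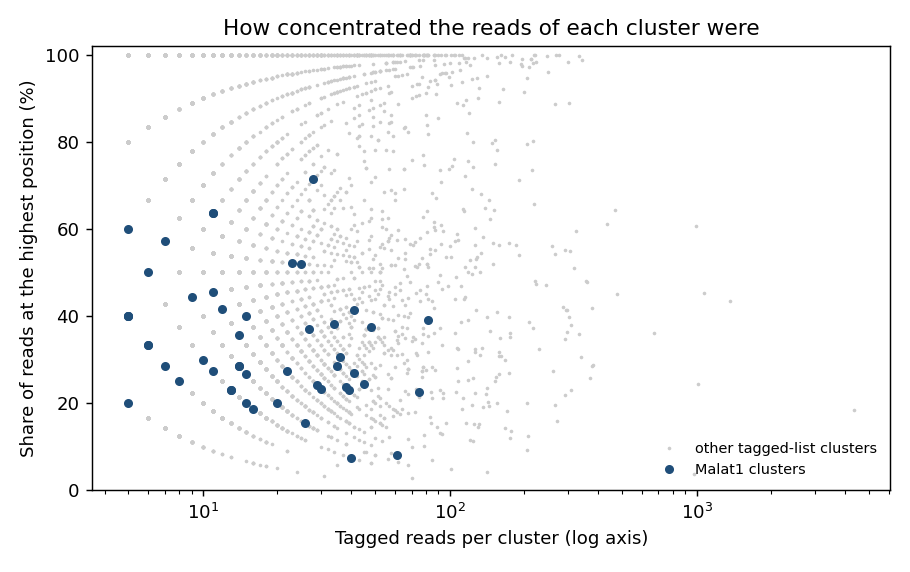
Share of a cluster's reads at its highest position (%) against tagged reads per cluster (log axis) for the 49 Malat1 clusters (large points) and the other 11621 clusters of the tagged list (small points). The median share is 30.0% on Malat1 and 40% over the other clusters. The highest is 71.4% on Malat1 and 100% over the others, but a highest value depends on how many clusters are compared.

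Many Malat1 clusters lay almost end to end. The median gap between neighbours was 32.5 nt, 28 of the 48 gaps were at most 50 nt, and 12 were at most 10 nt. In 9 of these 12 close pairs the tagged counts were within 1.5-fold of each other, as in the pair of 41 and 40 reads. In the other 3 they were 14 and 41, 41 and 25, and 13 and 41. Of the 36 pairs further apart, 17 were within 1.5-fold. Whether such neighbours share reads is not known, so counts were not summed over Malat1. Of the 49 clusters, 24 had the usual width of 26 nt, or 49.0%, beside 79.5% in the tagged list, and the others were 32 to 163 nt wide.

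By the authors' region names, 36 Malat1 clusters were of class C2, 7 of class B and 6 joined both, and 0 carried the name of a splice junction. What the classes mean is not explained in the sources used here. Class C2 clusters had a median of 23.5 reads, and their log2 ratios had a median of 2.81 (2.32 to 3.17). Class B clusters had a median of 6 reads, and 5 of the 7 (71.4%) had 0 untagged reads, beside the 69.9% of the whole tagged list. Of the 22 clusters of at least 20 reads, 20 were C2. The shares of these classes over the tagged list are not given here, so the class counts are not read as particular to Malat1.

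The tagged list held no cluster close to the window on the Malat1 strand. The opposite strand of the window held 0 clusters of either list. Upstream of the window, the nearest tagged-list cluster on the same strand lay 40.5 kb away, at positions 5843345 to 5843370, with 6 tagged reads against 0. Downstream the nearest lay 430.6 kb away, with 5 against 0. No cluster lay across either edge of the window, and its first 407 nt and last 550 nt held none. The count of 49 thus stays the same for edges moved within these ends, or outward short of the nearest clusters. Edges set further in would lower it.

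Among the 46 tagged-list loci of at least 20 clusters (clusters on 1 strand at most 1000 nt apart), Malat1 ranked 2nd by number of clusters and also 2nd by length. By clusters per 1000 nt it ranked 32nd, at 7.72 against a median of 9.71 over the loci. It was 45th from the highest by median log2 ratio, and 11 loci had a higher median of tagged reads than its 15. That rank rests on medians that mix measured ratios with values set by the added 1. At 20 or more reads the Malat1 median was 3.19, beside 2.87 over the tagged list, and a rank among loci at that size is not given. The Malat1 share of clusters with 0 untagged reads was 24.5%. It lay near the low end of the range over loci, 17.6% to 95% (median 66.7%), with 2 loci below it. The median untagged count per cluster was 2 on Malat1 and 0 at 33 of the 46 loci, and 1 locus had a higher one. Counting loci with at least 5 clusters of 20 or more reads, the share of such clusters with 0 untagged reads had a median of 20% over 29 loci and was 4.55% on Malat1, with 2 loci lower. The level of each RNA was not measured, and its part in these untagged counts was not tested.

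The 3 loci most like Malat1 were found by distance over 3 measures, each divided by its SD over the 46 loci: the median log2 ratio, clusters per 1000 nt (7.72 on Malat1) and the median share of a cluster's reads at its highest position. Nearest was a locus on chromosome 11, minus strand, positions 95818562 to 95824773, at a distance of 0.662, with 56 clusters, a median log2 ratio of 2.77 and 9.01 clusters per 1000 nt. A locus on chromosome 5, plus strand, positions 144946127 to 144948567, followed at 0.883 with 22 clusters and a median of 2.69. A locus on chromosome 3, minus strand, positions 107129357 to 107132986, came after it at 0.979 with 28 clusters and a median of 2.81. These loci are given by position, since no annotation of mm9 was used here.

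The untagged counts were not themselves among the measures that chose these loci. They enter the log2 ratio, which was, so the counts below are not independent of that choice. The untagged library had 0 reads at 25 of 56 clusters (44.6%), 18 of 22 (81.8%) and 20 of 28 (71.4%) of these loci in the order given, against 12 of 49 on Malat1. At 20 or more reads these counts were 2 of 16, 0 of 2 and 1 of 5, against 1 of 22 on Malat1, so few clusters remain to compare at matched size. The highest tagged count was 266 on the chromosome 11 locus, 21 and 33 on the others, and 82 on Malat1. The highest untagged count was 5 on the chromosome 11 locus, as on Malat1. Since clusters of few reads are listed against 0, the lower tagged counts on chromosomes 5 and 3 move with their higher shares, and no test of the difference between loci was made.

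**Figure D4:**
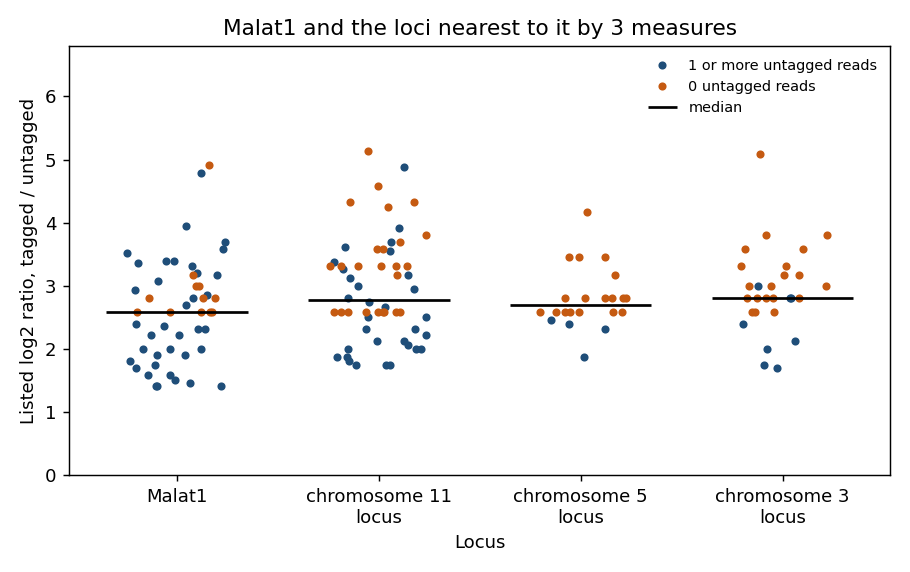
Listed log2 ratio of tagged to untagged reads (vertical axis) for each cluster of Malat1 and of the 3 loci nearest to it, with colour showing whether the untagged library had 0 reads and a line at the median. The medians lie between 2.58 and 2.81, which follows from the choice, since the loci were picked in part by this median. Clusters with 0 untagged reads are 12 of 49 on Malat1 and 18 of 22 on the chromosome 5 locus.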

How the data were processed

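The authors deposited 1 list of read clusters per library, in build mm9 per the submitters' processing notes. For the aligner, the cluster caller and PCR duplicates, the step is not given in the sources used here. The deposited columns are read counts at the highest position and joined values with no header, read from the values as own reads, the log2 ratio between own and other-library reads with 1 added, and a p-value (exact binomial, one-sided, even split). Per the file values, the lowest tagged count is 5 and the highest p 0.0494.

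Other-library reads are the whole number giving back ratio (tolerance 0.006) and p (0.0001, or 0.001 relative for smaller p). This worked for 100% of tagged-list clusters, with 5 ambiguous, 0 of them on Malat1. All recovered numbers are rounded multiples of a factor between 1.5 and 1.502, whose midpoint was used. On simulated counts for 7553 tagged-list clusters 100% were recovered, which checks the computation, not the reading of the columns. Coordinates count from 1.

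Clusters named singly were the 5 with the most reads, the 5 with the lowest p, and, at 20 or more reads, the 3 with the highest and lowest ratio and the 3 most concentrated, besides those at the window's ends and beside the 3 longest gaps. Members, loci and rules were chosen with earlier results of these data known. Alternatives were a p of at most 0.01, at least 10 or 20 reads, no junction names, joining at 10 or 100 nt, 1 cluster per stretch, unscaled reads, and overlap with the window. Python 3.11.15, SciPy 1.17.1, NumPy 2.4.6 and matplotlib 3.10.9 were used.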

Additional observations from a re-analysis of the deposited data

How the results depend on the processing

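Of 22 alternatives over 5 Malat1 results, 10 stayed close (within 1.5 times a count or length, or inside the 95% interval of a median or share) and 12 moved further. There were 0 changes of sign, which says nothing. Counts, lengths and shares have no sign to change, and the list was selected for more tagged than untagged reads. Leaving out junction names and taking any overlap with the window could not change anything, since Malat1 has no such cluster. These settings make up most of the 10 that stayed close. A listed p of at most 0.01 kept 29 clusters of 49 in 11 stretches, with a median log2 ratio of 3, 13.8% with 0 untagged reads and a longest gap of 996 nt; 52.8% of all tagged-list clusters passed that limit. At least 10 reads left 12 stretches and 2.70% with 0 untagged reads, and at least 20 reads 4.55%. With 1 cluster per stretch, 42.9% had 0 untagged reads. Joining at 10 and 100 nt gave 37 and 13 stretches, so the number 21 follows the joining distance. From unscaled reads with 1 added to each and the factor applied, the median log2 ratio was 2.22. Each of these changes brings in fewer clusters, or another distance or scale. No paired analysis was possible because there was 1 library per group. With at most 5 untagged reads per cluster, the upper bounds of the ratios are loose.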
